A study of Danio rerio with 6 samples.

Results

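The genes described here are the nuclear-encoded genes of oxidative phosphorylation, taken from the deposited zebrafish gene list by symbol: every symbol that starts with nduf, sdh, uqcr or atp5, or with cox followed by a digit from 4 to 8, leaving out the ndufaf genes and the cox assembly genes. The rule found 94 of 27771 genes. By role they were 36 genes of complex I, 5 of complex II, 8 of complex III, 18 of complex IV, 17 of the ATP synthase, 2 ATP synthase inhibitors, 4 genes of the NDUFA4 family and the 4 complex II assembly factors sdhaf1 to sdhaf4, which the prefix sdh takes in. A further 3 genes of the same families that the gene list spells in capitals fell outside the rule.

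Oxidative phosphorylation is the last stage of respiration, carried out in the inner mitochondrial membrane. Complexes I and II pass electrons from NADH and succinate to ubiquinone, complex III passes them to cytochrome c and complex IV (cytochrome c oxidase) to oxygen, and the ATP synthase uses the resulting proton gradient to make ATP. A small core of subunits is encoded in mitochondrial DNA and all others in the nucleus, and several complex IV subunits come as paralogues, of which one is typical of heart and skeletal muscle and another is more widely expressed in mammals. Adult cardiomyocytes depend on this pathway for most of their ATP, which is why it is followed in injured hearts.

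The series holds single-cell RNA-seq (3' counting of unique molecular identifiers, UMIs) of adult zebrafish ventricles from wild-type (WT) fish and clo(fv087b)/+ heterozygotes (het), which carry 1 mutant copy at the cloche locus. Each genotype was sampled at sham, which another label field of the same samples calls untreated, and at 3 and 7 days after amputation (dpa). Each of the 6 groups is 1 library made from the pooled cells of 15 ventricles, digested, stained with Hoechst and sorted, so individual fish cannot be told apart and no group has a replicate library. Tests therefore compared stages over both genotypes (2 libraries against 2) or genotypes over all stages (3 against 3), and their p-values measure the spread between these pools.

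After filtering, 59147 cells remained, between 8296 and 12448 per library, with a median of 4339.5 to 7616 UMIs per cell. Libraries shared between 23 and 60 cell barcodes per pair. The median mitochondrial share of UMIs was 8.07% in WT and 8.77% in het at 3 dpa, above the 3.41 to 4.87% of the other 4 libraries. Cells fell into 36 clusters, whose names rest on fixed marker genes and carry the ending "-like", and 17.1% of cells stayed unnamed. The members and the mitochondrially encoded genes were left out of the genes used for clustering. npas4l, the gene mutated at the cloche locus, had 45, 61 and 41 UMIs in WT and 18, 39 and 44 in het (sham, 3 and 7 dpa) over the named classes, too few to check the genotype labels.

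Cardiomyocyte-like cells stood apart in their oxidative phosphorylation transcripts. The 94 members together held 5.83, 7.66 and 6.93% of the class's UMIs in WT (sham, 3 and 7 dpa) and 6.39, 7.63 and 6.92% in het. In the 8 other classes with enough cells in every library, the mean share lay between 1.27 and 1.96%. With UMIs scaled to the same total in each class and library (CPM), 85 of the 94 members had their highest mean in cardiomyocyte-like cells, and for 72 the lowest cardiomyocyte library was above the highest library of every other class. These levels are descriptions with no test, because the classes come from clustering the same cells.

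**Figure D1:**
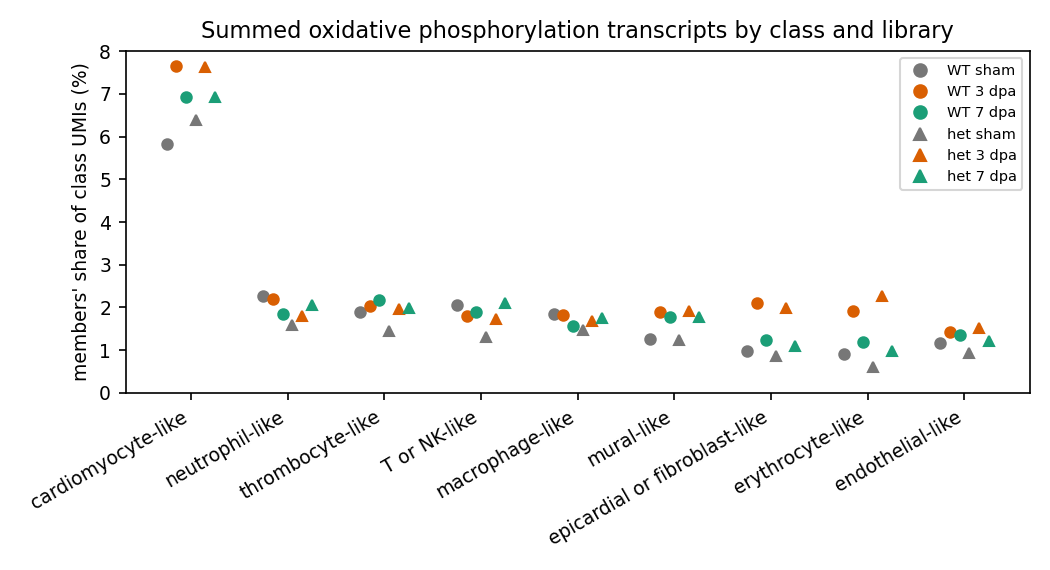
Share of each class's UMIs (%, vertical axis) held by the 94 members, by cell class (horizontal axis), 1 point per library, coloured by stage and shaped by genotype. Cardiomyocyte-like cells lie between 5.83 and 7.66% in all 6 libraries, above every point of the other classes.

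The plot of the summed share by class and library shows the gap between the cardiomyocyte-like cells and all others. In the cardiomyocyte-like cells of the WT sham library, the ATP synthase genes held 2.33% of UMIs, complex IV 1.56%, complex I 1.04%, complex III 0.418% and complex II 0.0736%. At 3 dpa in WT, the shares were 2.88, 2.37, 1.20, 0.595 and 0.107% in the same order. The 3 dpa share was above the sham share for each of these 5 complexes in both genotypes. In het, complex I was at 1.16% in sham and 1.23% at 3 dpa, and complex III at 0.486 and 0.537%. The class was made up of different clusters at each stage: in het, cluster 2 held 33.9% of it in sham and 77.3% at 3 dpa, and cluster 4 held 58.0 and 17.1%. Within cluster 2 the summed share of all members went from 5.89 to 8.11% in WT and from 7.42 to 8.14% in het. Within cluster 4 it went from 5.35 to 6.34% in WT, but in het it was 5.77% in sham and 5.68% at 3 dpa.

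The members with the largest preference for cardiomyocyte-like cells were mostly complex IV paralogues. The mean cardiomyocyte CPM was 6.75 times that of the next class for cox4i1l, a paralogue of subunit 4. It was 6.69 times for cox7a1, the counterpart of the mammalian heart and muscle form of subunit 7a, and 6.21 times for cox5b2, a form of subunit 5b. The ratio was 4.49 for cox8b (subunit 8), 4.21 for atp5mc3b, a form of the c subunit that builds the rotating ring of the ATP synthase, and 4.20 for atp5po, a subunit of the stalk that holds its catalytic head still.

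Free RNA and undetected doublets can carry cardiomyocyte transcripts into the other classes, so the paralogues were set beside 12 cardiomyocyte markers summed, measured in the same cells. In epicardial or fibroblast-like cells the markers stood at 2.28% of their cardiomyocyte level, in macrophage-like cells at 2.37%, in endothelial-like cells at 4.84% and in neutrophil-like cells at 12.5%. cox5b2, cox4i1l and ndufa4 were at no more than 2 times the marker level in the epicardial or fibroblast-like and endothelial-like cells. So was cox6a2 in the epicardial or fibroblast-like cells. The median of the 86 well-counted members was 21.9% of the cardiomyocyte level in epicardial or fibroblast-like and 19.5% in endothelial-like cells. cox7a1 was within 2 times the marker level in endothelial-like and macrophage-like cells but not in epicardial or fibroblast-like cells. In macrophage-like cells cox5b2 was within it and cox4i1l was not. There cox4i1l was at 52.5, 172 and 59.6 CPM in WT (sham, 3 and 7 dpa) and 30.8, 296 and 61.5 in het. Both 3 dpa libraries were above the other 4, but cox4i1l did not pass the test of 3 dpa against sham in these cells. In erythrocyte-like cells, where the markers stood at 11.6%, 65 of the 86 members were at no more than 2 times that level.

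**Figure D2:**
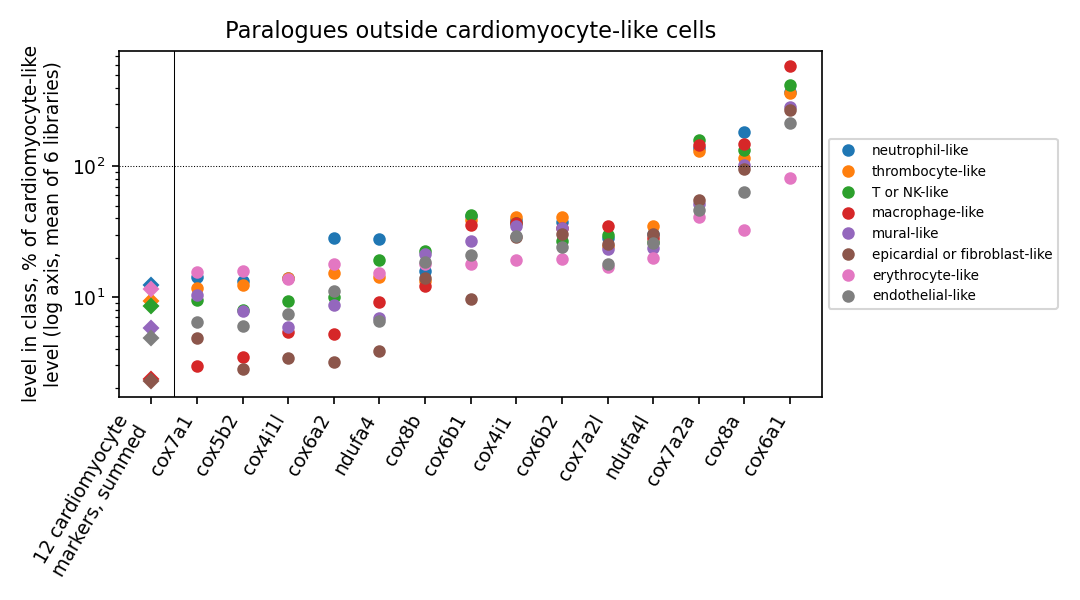
Level of each paralogue in 8 other classes as a percent of its cardiomyocyte-like level (log axis, mean over 6 libraries), with the 12 summed cardiomyocyte markers as diamonds at the left. cox5b2, cox4i1l and ndufa4 lie within 2 times the markers in the epicardial or fibroblast-like and endothelial-like cells, and cox6a1 lies above 100% in every class but the erythrocyte-like cells.

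The plot of the paralogues against the cardiomyocyte markers runs from muscle-type to widely expressed forms. cox6a1, a form of subunit 6a, was highest in macrophage-like cells, at 337 to 548 CPM over the libraries, 4.19 times its cardiomyocyte mean. cox4i2 is a form of subunit 4 that in mammals is found in lung and oxygen-sensing cells. Its mean was highest in mural-like cells (pericytes and smooth muscle), at 113 to 244 CPM over the libraries, 17.2 times its cardiomyocyte mean. The range was 24.4 to 152 CPM in epicardial or fibroblast-like cells and 47.8 to 106 in endothelial-like cells. In sham, epicardial or fibroblast-like cells were above mural-like cells, at 146 against 124 CPM in WT and 152 against 113 in het. ndufa4l2a, a paralogue of the complex IV subunit ndufa4 whose mammalian counterpart NDUFA4L2 is a hypoxia-induced gene, reached 17.5 to 240 CPM in mural-like cells (645 UMIs in all), while the cardiomyocyte-like cells had 0 to 4 UMIs per library. Its paralogue ndufa4l2b had 0 UMIs in every named class.

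cox7a2a, a widely expressed form of subunit 7a of complex IV, showed no preference for cardiomyocytes. Its mean CPM over the libraries was 255 in T or NK-like cells, 240 in cardiomyocyte-like, 226 in neutrophil-like, 225 in thrombocyte-like and 220 in macrophage-like cells. It was 154 in epicardial or fibroblast-like cells, 119 in mural-like, 87.2 in endothelial-like and 85.4 in erythrocyte-like cells. Every neighbouring pair in this order overlapped in its range over the 6 libraries. The cardiomyocyte-like mean was raised by the 3 dpa libraries, at 464 CPM in WT and 498 in het. The sham and 7 dpa libraries of that class lay at 87.8 to 165 CPM, below the lowest macrophage-like library at 187. Over the 54 class and library values, members whose log2(CPM + 1) followed that of cox7a2a closely were cox8a (Pearson's r 0.81), atp5mc1 (0.73) and ndufa10 (0.71). These points share libraries and depth, and the correlation is a description only.

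Within cardiomyocyte-like cells, cox7a2a (ENSDARG00000053217) was at 87.8 CPM in the WT sham library, 464 at 3 dpa and 165 at 7 dpa. In het it was at 93.2, 498 and 135 CPM. Both 3 dpa libraries were high, both sham libraries were low, and the stages did not overlap. The log2 ratio of 3 dpa to sham was 2.40 in WT (95% interval 2.36 to 2.45) and 2.42 in het (2.36 to 2.48), exact intervals that cover counting error only. The gene had been singled out for this rise in earlier results of the same data, so its fitted difference over both genotypes, 2.28 on the log2 scale (SE 0.21), is a description too. The level was also higher at 3 dpa inside each of the 4 cardiomyocyte clusters with at least 20 cells in all 6 libraries. In cluster 2, which held 43.9% of the class in the WT sham library and 69.3% at 3 dpa, cox7a2a went from 97.2 to 482 CPM in WT and from 115 to 532 in het. In cluster 4 it went from 70.3 to 397 CPM in WT and from 79.98 to 372 in het, and in cluster 7 from 89.4 to 514 in WT and from 98.3 to 564 in het. In cluster 26 it went from 69.95 to 360 CPM in WT and from 79.2 to 273 in het.

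Across the 91 members that could be tested in cardiomyocyte-like cells, 4 were higher and 1 lower at 3 dpa than in sham by edgeR's quasi-likelihood test at an adjusted p under 0.05. Over all 15091 genes tested, 3.51% were called higher and 4.86% lower, so the members' counts are near the background. The 4 higher members were cox7a2a, whose rise here was known beforehand, and cox6a1, cox6b1 and atp5mc1. The call of cox7a2a is thus a description only. Apart from it, cox6a1 and cox6b1 belong to complex IV and atp5mc1 to the ATP synthase. The 1 lower member was cox4i2. The median log2 difference was 0.23 over the members and 0.01 over all genes. Scaling by library totals alone, which moved the median of all genes to 0.15, called 745 genes higher and 470 lower in place of 529 and 734, and 12 members higher and 1 lower.

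cox6a1 (ENSDARG00000022438) was at 46.4, 102 and 179 CPM in WT (sham, 3 and 7 dpa) and at 38.9, 110 and 164 in het. It was lowest in both sham libraries and highest in both 7 dpa libraries, with no overlap between stages. The log2 difference from sham was 1.19 at 3 dpa (SE 0.20, edgeR adjusted p = 0.0237) and 2.06 at 7 dpa (SE 0.21, adjusted p = 0.0209). The mix of clusters in the class differed between the stages. A fit on cluster 2 alone, chosen after seeing the data, shared the 4 higher and the 1 lower call of 3 dpa. At 7 dpa that fit called no member, cox6a1 included, and few genes in all. In the sham libraries the muscle-type paralogue cox6a2 stood at 1836 and 2097 CPM, and at 3 dpa it was at 2299 in WT and 2118 in het (adjusted p = 0.923).

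atp5mc1 (ENSDARG00000056008), which encodes a c subunit of the ATP synthase ring, was at 776, 1650 and 1136 CPM in WT, with 768, 2209 and 1053 in het. Both 3 dpa libraries were above the other 4, and both 7 dpa libraries were above both sham libraries. The difference at 3 dpa was 1.19 on the log2 scale (SE 0.24, edgeR adjusted p = 0.0353). The other c-subunit genes went different ways: atp5mc3a was at 364 CPM in WT sham and 546 at 3 dpa, and at 337 and 767 in het (adjusted p = 0.0997). The most muscle-preferring one, atp5mc3b, was at 4506 and 3680 CPM for WT, 4046 and 5376 for het, opposite in the 2 genotypes (adjusted p = 0.907).

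cox6b1 (ENSDARG00000045230), a subunit of complex IV at the cytochrome c side, was at 549, 1133 and 881 CPM in WT, with 558, 1049 and 907 in het. Again the 3 dpa libraries were highest and the sham libraries lowest. The difference at 3 dpa was 0.84 (SE 0.18, edgeR adjusted p = 0.0369). This call was lost in each fit that left out 1 library, and those of cox6a1 and atp5mc1 were lost without the het 3 dpa library (adjusted p = 0.0963 and 0.122). That of atp5mc1 was lost without the het sham or either 7 dpa library too. Without the het 3 dpa library only cox7a2a and cox4i2 of the members passed, and 116 genes in all in place of 1263, while without the WT 3 dpa library 9 members and 584 genes did. ndufa4, now counted as a subunit of complex IV, stood at 566 and 1019 CPM for WT (sham and 3 dpa), and at 521 and 1055 in het, but did not pass (0.80, adjusted p = 0.0529).

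cox4i2 (ENSDARG00000022509) was the only member called lower in the cardiomyocyte-like cells at 3 dpa. It was at 12.6 CPM in WT sham, 1.08 at 3 dpa and 8.62 at 7 dpa, and at 20.7, 0.942 and 13.5 CPM in het. Both 3 dpa libraries were below the other 4, and the fitted difference was -4.09 on the log2 scale (SE 0.24, edgeR adjusted p = 0.00679). The 8 mural markers summed within the cardiomyocyte-like cells moved the same way, from 874 to 424 CPM in WT and from 1489 to 457 in het, with 916 and 1125 at 7 dpa. The 10 endothelial markers went from 50.9 to 15.5 CPM in WT and from 34.1 to 14.7 in het. The 12 epicardial or fibroblast markers went the other way, from 98.3 to 116 CPM in WT and from 88.7 to 122 in het. In cluster 2 alone, cox4i2 went from 131 to 9 UMIs in WT and from 31 to 3 in het, and in cluster 4 from 429 to 35 and from 496 to 16. In mural-like cells themselves cox4i2 was at 124 CPM in WT sham and 141 at 3 dpa, and at 113 and 145 in het. The 3 dpa values in mural-like cells rest on 67 UMIs in WT and 58 in het. The part of mural, endothelial and fibroblast transcripts in the fall was not tested.

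**Figure D3:**
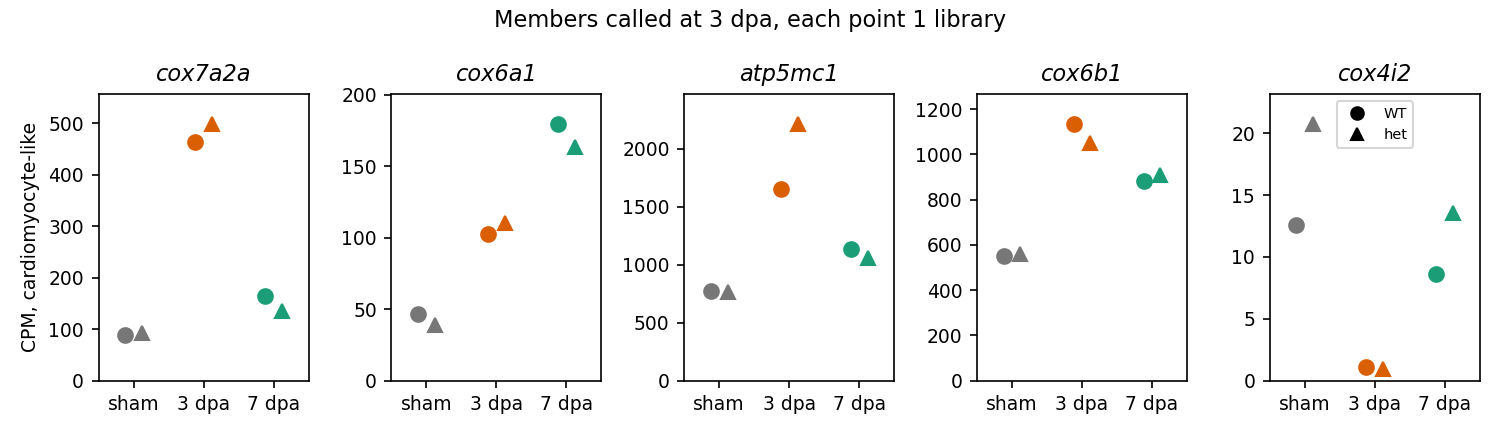
CPM in cardiomyocyte-like cells (vertical axes, each from 0) of the 5 members called at 3 dpa, by stage, 1 point per library, WT as circles and het as triangles. cox7a2a, atp5mc1 and cox6b1 are highest at 3 dpa, cox6a1 at 7 dpa, and cox4i2 is near 1 CPM at 3 dpa.

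The plot of the called members by stage shows the same order of stages in WT and het for each of these 5 genes. The wider set of members also leaned upward at 3 dpa, mostly by small amounts. Among the 86 members with at least 200 UMIs in every cardiomyocyte library, 44 (51.2%) had both 3 dpa libraries above the other 4, where 30.5% of the 4769 genes with as many UMIs did. The opposite order held for 2 (2.33%), against 13.7% of those genes. The 3 dpa value was above sham in both genotypes for 59 members (68.6%, against 44.4% of genes) and below it in both for 5 (5.81%, against 26.3%).

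The 5 members lower at 3 dpa in both genotypes were ndufv2, ndufb7, ndufb4 and ndufb3 of complex I and the ATP synthase inhibitor atp5if1a. ndufv2, an iron-sulfur subunit of the NADH-oxidising arm of complex I, was at 248, 164 and 168 CPM in WT, with 241, 73.2 and 227 in het. The het 3 dpa library was the lowest, and the difference did not pass (-1.24, edgeR adjusted p = 0.0601). ndufb7, a subunit of the membrane arm, was at 1257, 897 and 1139 CPM in WT, with 1205, 1052 and 1146 in het (adjusted p = 0.198). The 3 dpa libraries were lowest for both of these genes.

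The other 3 hardly moved. ndufb4, also of the membrane arm, was at 425, 400 and 442 CPM in WT, with 482, 453 and 460 in het (adjusted p = 0.458). ndufb3, of the same arm, was at 470, 456 and 539 CPM in WT, with 435, 396 and 484 in het (adjusted p = 0.429). atp5if1a, which blocks ATP hydrolysis by the synthase, was at 685, 623 and 649 CPM in WT, with 654, 626 and 615 in het (edgeR adjusted p = 0.446). Its paralogue atp5if1b was at 873, 1137 and 750 CPM in WT, with 793, 1366 and 762 in het, highest at 3 dpa in both genotypes (adjusted p = 0.229).

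Complex II, which also serves the citric acid cycle, had its 5 subunit genes on the upper side of 0 at 3 dpa, with a median log2 difference of 0.55, and none passed. sdha, its flavin subunit, was at 172, 268 and 216 CPM in WT, with 164, 321 and 200 in het (edgeR adjusted p = 0.0887). sdhb, its iron-sulfur subunit, was at 253, 407 and 285 CPM in WT, with 252, 400 and 295 in het (adjusted p = 0.0935). For both genes the 3 dpa libraries were highest and the sham libraries lowest, so the groups did not overlap. In complex III, uqcrc1, a core subunit, was at 207, 359 and 268 CPM in WT, with 218, 367 and 265 in het, in the same order (adjusted p = 0.0649).

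At 7 dpa the summed share of the cardiomyocyte-like cells lay between the sham and 3 dpa values in both genotypes. The make-up of the class differed here too. Cluster 7 held 18.4% of it in WT sham and 40.2% at 7 dpa, and 3.54 and 35.8% in het. From sham to 7 dpa, the share within cluster 2 went from 5.89 to 7.32% in WT and from 7.42 to 7.45% in het. Within cluster 4 it went from 5.35 to 5.60% and from 5.77 to 5.73%. Within cluster 7 it went from 6.41 to 7.50% and from 7.04 to 7.53%. The part of cluster make-up in the 7 dpa values was not tested. In the whole class cox6a1 was the only member called against sham, where 0.59% of all genes were called higher and 0.146% lower. That call was lost without the WT or the het 7 dpa library (edgeR adjusted p = 0.132 and 0.0604). By order, 61 of the 86 members (70.9%, against 33.7% of genes) were above sham in both genotypes and 7 (8.14%, against 35.9%) below it, with ndufv2, atp5if1a and ndufb7 the lowest by the rule for naming. cox6b1 was again among the highest, at 0.74 on the log2 scale (edgeR adjusted p = 0.112). cox8a, the widely expressed form of subunit 8, was at 192, 339 and 342 CPM in WT, with 217, 358 and 329 in het, so both injured stages were above sham (0.77 at 7 dpa, edgeR adjusted p = 0.107). Its muscle-type paralogue cox8b was at 909, 2115 and 1620 CPM in WT but at 1314, 1332 and 1615 in het.

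No member differed between het and WT over the 3 stages by edgeR's adjusted p, and neither did any other gene (0% higher and 0% lower, with 870 of 15091 genes at an unadjusted p under 0.05; DESeq2 called 57 genes and no member). Of the 86 members, 6 (6.98%, against 15.1% of genes) were higher in het at every stage and 1 (1.16%, against 11.6%) lower. Ranked by the smallest of their het to WT ratios over the stages, the highest of the 6 were cox7a2l, ndufs8a and ndufb4. The 1 lower was ndufb3, with ndufb4 and ndufb3 at the values given above. cox7a2l, a subunit 7a relative that in mammals links complexes III and IV, was at 249, 273 and 260 CPM in WT, with 266, 323 and 297 in het (adjusted p = 0.944). ndufs8a, an iron-sulfur subunit of complex I, was at 186, 242 and 209 CPM in WT, with 218, 277 and 218 in het (adjusted p = 0.951).

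In some members the ratio to sham had opposite signs in the WT and het libraries, which with 1 library per group is a description. The counting intervals lay on opposite sides of 0 for 21 of 86 members at 3 dpa (24.4%, against 14.1% of genes) and for 12 at 7 dpa (14.0%, against 10.3%). For 11 members (12.8%, against 4.63% of genes) the 2 ratios at 3 dpa lay over 1 log2 unit apart, all positive in WT and negative in het: ndufa1, ndufa2, ndufa3 and ndufa7 of complex I, uqcrq of complex III, cox7a1 and cox7c of complex IV, and atp5md, atp5mea, atp5mf and atp5f1e of the ATP synthase. atp5md was at 856, 2098 and 1630 CPM in WT, with 1703, 638 and 1813 in het. cox7c was at 912, 2983 and 1945 CPM in WT, with 1674, 1431 and 1969 in het. ndufa1 was at 416, 770 and 662 CPM in WT, with 755, 302 and 700 in het. For atp5md and ndufa1 the het 3 dpa library was lowest and the WT sham library next, while the 7 dpa libraries of both genotypes were close.

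These 11 members were chosen by their cardiomyocyte values, so the following is a description. Their het to WT ratio at 3 dpa was negative for 11 of 11 not only in cardiomyocyte-like cells (median -0.98 on the log2 scale) but also in macrophage-like (-1.13), endothelial-like (-1.07) and epicardial or fibroblast-like cells (-1.14). The other 75 members had medians of 0.18, 0.04, 0.28 and 0.16 in the same classes. In sham the median het to WT ratio of the 11 was 0.86 in cardiomyocyte-like cells, 0.31 in macrophage-like, 0.03 in endothelial-like and 0.33 in epicardial or fibroblast-like cells, and at 7 dpa it was 0.03, 0.27, -0.20 and -0.17 in the same order. The het 3 dpa library was thus below the WT 3 dpa library for these members in all 4 classes, and with 1 library per group genotype and library cannot be told apart. Without the 11 members, the summed cardiomyocyte share was 5.08, 6.25 and 5.74% for WT and 5.17, 6.91 and 5.70% for het. The log2 ratio of 3 dpa to sham changed from 0.39 to 0.30 in WT and from 0.26 to 0.42 in het. The 11 were chosen for ratios positive in WT and negative in het. That choice set the rise in het in advance and favoured the drop in WT.

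**Figure D4:**
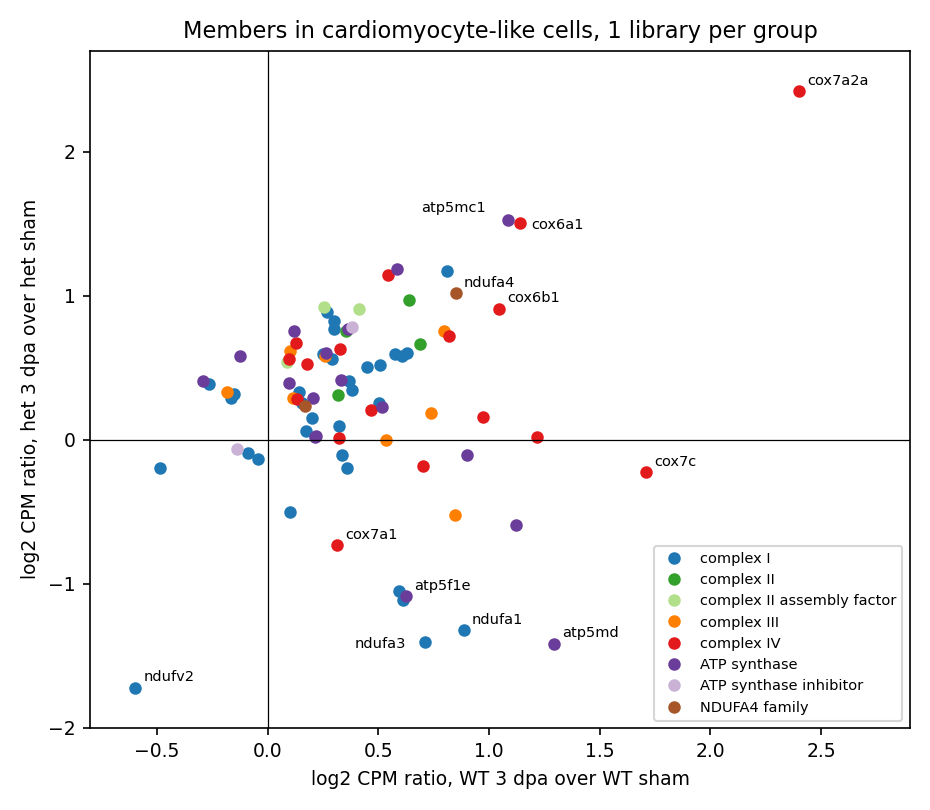
log2 CPM ratio of 3 dpa to sham in cardiomyocyte-like cells, WT on the horizontal and het on the vertical axis, 1 point per member with at least 200 UMIs in every library, coloured by complex. cox7a2a lies at 2.40 and 2.42, and members such as atp5md lie right of 0 in WT and below 0 in het.

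In the plot of WT against het ratios, most members lie in the quadrant where both are positive, near the origin, and the 11 members of opposite sign lie below and to the right. Other genes of the pathway were counted in the same fit, where 3.51% of all genes were called higher and 4.86% lower. Of the 13 mitochondrially encoded genes, none passed at 3 dpa in cardiomyocyte-like cells, with a median log2 difference of 0.63. Of 42 assembly factors tested, a list that includes the 4 sdhaf members, 6 rose and none fell, among them bcs1l (1.88, edgeR adjusted p = 0.0162), which inserts the iron-sulfur protein into complex III, and acad9 (1.30, adjusted p = 0.0130), a complex I assembly factor. Of 19 citric acid cycle genes, 1 rose. Of 11 carriers and translocators 1 rose, etfdh (1.02, adjusted p = 0.0272), which passes electrons from fatty acid oxidation to ubiquinone. Of 9 regulators of mitochondrial biogenesis 1 fell, gabpb1 (-1.64, adjusted p = 0.0311), the GABP beta subunit. The lists with 1 call each are near the share of all genes called.

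Outside cardiomyocytes, cox7a2a varied most in the epicardial or fibroblast-like cells. There it was at 38.5, 356 and 89.8 CPM in WT, with 32.2, 333 and 73.2 in het, and the log2 ratios of 3 dpa to sham were 3.21 and 3.37. CPM scales by library totals alone. In the edgeR fits with 1 library left out, the log2 difference in this class was 2.62 to 2.89. The cells of this class also differed between stages, as given below. In mural-like cells the CPM ratios were 2.07 in WT and 2.57 in het, in erythrocyte-like cells 1.72 and 1.43, and in endothelial-like cells 0.67 and 1.81. In macrophage-like cells they were -0.11 and 0.13, and in T or NK-like cells 0.20 and 0.52. The 12 cardiomyocyte markers summed went from 11286.5 to 18012 CPM in WT erythrocyte-like cells (sham and 3 dpa) and from 4738 to 25351 in het. They went from 6825 to 7633 and from 2634 to 6037 in endothelial-like cells, and from 7354 to 6159 and from 2052 to 4048 in mural-like cells. The WT sham library held 35 erythrocyte-like cells. The part of free cardiomyocyte RNA in the cox7a2a ratios was not tested. Both cox7a2a ratios were positive in every class compared except the macrophage-like cells, and the difference between classes was not tested. Some of these classes were thin at 3 dpa. T or NK-like cells numbered 44 in WT and 28 in het, neutrophil-like cells 67 and 48, thrombocyte-like cells 57 and 77, and mural-like cells 85 and 83.

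In macrophage-like cells 1 of 89 members rose at 3 dpa and none fell, where 0.802% of all genes were called higher and 0.605% lower. It was cox8b, at 88.1, 284 and 169 CPM in WT, with 111, 270 and 170 in het (1.30, edgeR adjusted p = 0.0492), and it kept its call only without the het sham library among the fits that left out 1 library. In endothelial-like cells 1 of 89 fell and none rose, where 0.906% of genes were called higher and 0.823% lower. It was cox4i2, at 90.7, 47.8 and 93.6 CPM in WT, with 105, 60.8 and 106 in het (-1.18, edgeR adjusted p = 0.0481), and it kept its call only without either 3 dpa library among those fits. Without the WT 3 dpa library 24 of 90 members rose in endothelial-like cells and 6 fell, where 4.99% of all genes rose and 4.26% fell. With library totals alone, the genes called were 239 higher and 83 lower in macrophage-like cells, in place of 118 and 89. In endothelial-like cells they were 432 and 64 in place of 109 and 99, and the call of cox4i2 was lost (adjusted p = 0.0726). In both cases the 3 dpa libraries stood apart from the other 4, on the high side for cox8b and on the low side for cox4i2. The macrophage-like clusters were uneven over the libraries. Cluster 6 drew 42.4% of its cells from the WT 3 dpa library, and clusters 10 and 13 drew 41.7 and 43.0% from WT sham. The part of cluster make-up in the cox8b and cox4i1l values of macrophage-like cells was not tested.

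Among the 4 classes fitted, the epicardial or fibroblast-like cells had the most members called. At 3 dpa, 52 of 91 members (57.1%) rose and 5 (5.49%) fell by edgeR's test, where 23.3% of all 14516 genes rose and 21.9% fell. The summed share of the 94 members was 0.977, 2.105 and 1.23% for WT and 0.868, 1.99 and 1.11% for het. The log2 ratio of this share, 3 dpa over sham, was 1.11 in WT and 1.19 in het. In classes not fitted it was 1.09 and 1.89 in erythrocyte-like cells, with the limits given above, and 0.59 and 0.62 in mural-like cells. In the fit of the epicardial or fibroblast-like cells, the median log2 difference of the members was 0.77, against -0.01 for all genes. With library totals alone the median of all genes moved to 0.55, 5559 genes rose and 1755 fell in place of 3379 and 3179, and 71 members rose and 3 fell. Of the tested genes of each complex, 22 of 34 rose in complex I, 2 of 5 in complex II, 6 of 8 in complex III, 9 of 18 in complex IV and 11 of 17 in the ATP synthase.

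atp5mc1 was at 77.0, 565 and 160 CPM in WT epicardial or fibroblast-like cells and at 62.7, 688 and 108 in het (2.62, SE 0.26, edgeR adjusted p = 9.52e-05). uqcrfs1, the Rieske iron-sulfur protein of complex III, was at 68.5, 254 and 116 CPM in WT, with 41.4, 304 and 85.9 in het (1.82, SE 0.28, adjusted p = 0.000762). ndufa10, a subunit of complex I, was at 22.5, 99.9 and 30.8 CPM in WT, with 17.6, 127 and 21.9 in het (1.95, SE 0.27, adjusted p = 0.000458). In all of these the 3 dpa libraries were far above the other 4.

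The fallers were cox4i2, cox7a1, cox6a2, cox5b2 and ndufa4l, the first 4 of them complex IV paralogues. With library totals alone the calls of cox5b2 and ndufa4l were lost, as they were without the WT sham library (edgeR adjusted p = 0.216 and 0.0825), and that of cox5b2 without the WT 3 dpa library (adjusted p = 0.0718). cox4i2 stood at 146, 24.4 and 120 CPM in WT, with 152, 40.2 and 143 in het (-2.81, SE 0.25, edgeR adjusted p = 5.52e-05). cox7a1 was at 121, 46.5 and 115 CPM in WT, with 99.5, 26.4 and 102 in het (-2.20, SE 0.23, adjusted p = 0.000111). The summed cardiomyocyte markers in these cells were at 3.61, 1.55 and 3.26% of their cardiomyocyte level in WT and at 1.26, 1.53 and 2.44% in het. cox7a1 stood at 7.68, 2.38 and 6.63% of its cardiomyocyte level in WT and at 4.67, 2.06 and 5.75% in het. The part of free cardiomyocyte RNA in the fall of the muscle-type paralogues was not tested.

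The cells of this class were not the same at each stage. Cluster 21, led by col12a1b, held 385 of the 842 WT cells and 352 of the 842 het cells of the class at 3 dpa, and 0 to 5 cells in each other library. Its cells were deep, with medians of 34184 UMIs in WT and 22045 in het, against 5235 and 4186 in cluster 8 at 3 dpa. The fit sums UMIs, so cluster 21 weighed more in it than its share of cells. The members' share was 2.31% in WT and 2.25% in het in cluster 21. In cluster 8, which had cells at every stage, the share was 0.943, 1.14 and 1.09% for WT and 0.812, 1.04 and 0.978% for het. In cluster 9 it was 0.997, 1.66 and 1.22% for WT and 0.925, 1.53 and 1.101% for het.

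Within cluster 8 alone, where 3.33% of all genes rose and 3.63% fell, 1 of 88 members rose, atp5mc1 (1.54, edgeR adjusted p = 0.00287), and 1 fell, ndufa4l2a (-3.20, adjusted p = 0.0167), with 7 and 23 UMIs in the sham libraries and 1 and 2 at 3 dpa. The median log2 difference of the members was 0.15 there. cox4i2 stood at 170 and 152 CPM for WT, and at 191 and 182 in het (sham and 3 dpa) in that cluster. There cox6a2 and cox5b2 turned to the other side, at 0.28 and 0.43 on the log2 scale. In the class without cluster 21, 14 of 89 members rose and 3 fell, where 8.85% of all genes rose and 8.39% fell. Both the members' counts and the share of all genes called were thus smaller without cluster 21. In cluster 9 the members' share was higher at 3 dpa within the cluster. A change within cells and a change in which cells were captured cannot be told apart for the class as a whole. At 7 dpa, 4 members rose in the whole class (cox6b1, cox7a2a, uqcr10 and cox6a1) and none fell, where 6.9% of all genes rose and 5.13% fell. The largest log2 difference of these was 1.02 for cox6b1 (SE 0.21, edgeR adjusted p = 0.0169).

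**Figure D5:**
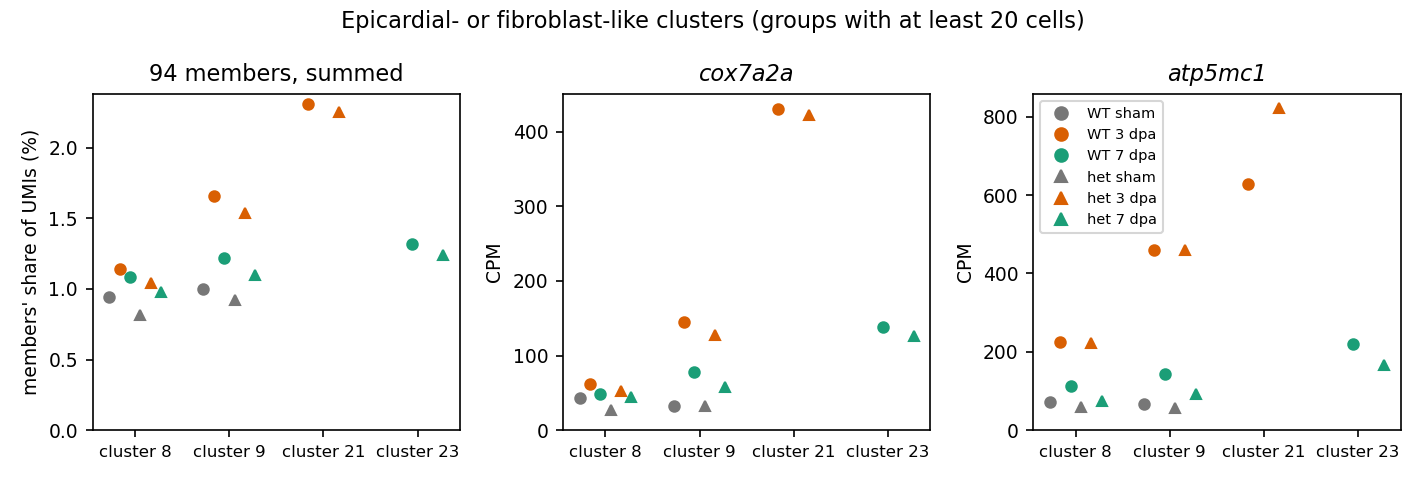
Members' share of UMIs (%) and the CPM of cox7a2a and atp5mc1 in 4 epicardial or fibroblast-like clusters, 1 point per library with at least 20 cells there, coloured by stage and shaped by genotype. Cluster 21 has points at 3 dpa only, at 2.31 and 2.25% of UMIs, while in clusters 8 and 9 the 3 dpa points lie above the sham points by less.

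The plot by cluster shows the step from clusters 8 and 9 to cluster 21 in all 3 measures. In the whole class, 19 of 42 assembly factors rose and 3 fell and 10 of 19 citric acid cycle genes rose, where 23.3% of all genes did. The 3 of 13 mitochondrially encoded genes that rose are near that share. Among the citric acid cycle genes was dlat (2.04, edgeR adjusted p = 0.000133), a subunit of the pyruvate dehydrogenase complex. cycsb, a cytochrome c gene, rose by 2.62 (adjusted p = 0.000138), as 1 of 5 carriers and translocators that rose of 10, of which 2 fell. Of 8 regulators 2 rose and 1 fell, again near the share of all genes. Paralogues with near-identical 3' ends can exchange reads in 3' counting, so values of single paralogues carry that uncertainty.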

How the data were processed

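Counts of UMIs per gene and barcode were deposited by the authors for each library, as raw filtered matrices per the file headers. The submitters' processing notes name Cell Ranger 3.0.2, Seurat 3.1.4 and GRCz11. The members and all gene lists were chosen with earlier results of these data known. Barcodes with under 200 genes, under 500 UMIs or over 30% mitochondrial UMIs were dropped. Doublets were scored with Scrublet (scanpy 1.11.5), and the top 0.8% per 1000 barcodes were removed. Clusters came from 2000 variable genes, 30 principal components, 15 neighbours and the Leiden method (leidenalg 0.10.2) at resolution 1. A cluster was named where its best marker list had a mean log2 fold of at least 0.75 and a margin of 0.5 over the next list. At least 3 markers also had to be raised 2-fold and found in at least 10% of its cells. A name was withheld where the leading genes held more markers of another class. It was also withheld where cells had few UMIs and no leading gene was a marker of the class. That left cluster 19 unnamed, with 790 cells and endothelial markers as its best list. These thresholds were set after clusters had been seen. Levels need 20 cells of a class in each library, which left out the B-like and glial-like cells.

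Sums of UMIs over the cells of a class in 1 library were fitted with edgeR 4.0.16 (R 4.3.3; TMM, filterByExpr, quasi-likelihood, genotype plus stage, 6 libraries, 2 residual degrees of freedom, Benjamini-Hochberg over all genes of the class). Genotype-dependent injury effects go into the spread of this fit. It was run where a class had 100 cells or more in each library. SEs come from the fold change and the F statistic. DESeq2 1.42.0 was an alternative. The fit was tested on simulated data for the cardiomyocyte comparison at 3 dpa (15091 genes): 23% of 100 genes changed 2-fold and 89% of 100 changed 4-fold were recovered. Ratios of 2 libraries carry exact conditional binomial 95% intervals, which cover counting error only. Members named with all their values are cox7a2a, those with the largest ratio of one sign in both genotypes or at all stages, among members with at least 200 UMIs in every cardiomyocyte library, those most and least specific to cardiomyocytes, and those called. atp5mc3a, atp5mc3b, cox6a2, cox8b, atp5if1b, sdha, sdhb and uqcrc1 in cardiomyocytes, as paralogues or examples of a complex, and the members of opposite sign were picked after their values were seen. No sequences are shown. Values of some single genes are not reported here.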

Additional observations from a re-analysis of the deposited data

Results flagged for a closer look

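In cardiomyocyte-like cells the counting interval of the 3 dpa to sham ratio lay above 0 in WT and below 0 in het for 15 members. There was 1 library per group and no test of the difference. The WT minus het log2 ratio was 2.71 for atp5md, 2.21 for ndufa1, 2.12 for ndufa3, 1.94 for cox7c, 1.72 for ndufa7, 1.72 for atp5mea, 1.71 for atp5f1e, 1.65 for ndufa2, 1.37 for uqcrq, 1.05 for cox7a1 and 1.01 for atp5mf. It was 0.89 for cox6c, 0.60 for ndufa11, 0.55 for ndufa5 and 0.44 for ndufv3. The reverse, with the interval below 0 in WT and above 0 in het, held for 6 members. Their 2 ratios lay 0.70 apart for atp5f1d and for atp5mc3b, 0.65 for ndufb10, 0.52 for uqcrc2a, 0.47 for ndufa8 and 0.45 for ndufs3.

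Counting intervals of the 7 dpa to sham ratio lay on opposite sides of 0 in WT and het for 12 members. The difference was again not tested. The 2 ratios lay 0.85 apart for ndufa3, 0.78 for ndufa1, 0.52 for cox6c, 0.40 for cox7a1, 0.31 for uqcrc2a, 0.21 for atp5mc3b, 0.19 for cox5b2, 0.18 for atp5f1d, 0.15 for atp5pf, 0.13 for ndufb4, 0.12 for ndufb10 and 0.10 for cox4i1.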

How the results depend on the processing

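For cardiomyocyte-like cells at 3 dpa, 5 members were called. The count was 9 with DESeq2, 13 with library totals alone, 8 with no filter on low counts and 8 without clusters mostly of 1 library (chosen after seeing the data). Over all genes it was 1263, and 2120 with no filter. At 7 dpa, 1 member was called, 4 with DESeq2 and 0 in cluster 2 alone (chosen after seeing the data). The 111 genes called then became 526 with DESeq2, 662 with no filter, 53 with cells named one by one, 6 in cluster 2 alone and 278 without clusters mostly of 1 library. Between genotypes 0 genes were called, 57 with DESeq2, 25 with no filter and 1 in cluster 2 alone.

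In macrophage-like cells 1 member and 207 genes were called at 3 dpa. The members were 6 with DESeq2, 2 with library totals alone and 3 with no filter, and the genes 1146, 322 and 960. In endothelial-like cells 1 member and 208 genes were called. The members were 3, 6 and 9 in the same order and 0 under the stricter cell filter, and the genes 338, 496 and 1009. In epicardial or fibroblast-like cells the 57 members and 6558 genes called became 2 and 621 in cluster 8 alone, and 17 and 1977 without cluster 21, both chosen after seeing the data.

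The log2 ratio of the summed cardiomyocyte share, 3 dpa over sham, was 0.39 for WT and 0.26 for het. It was 0.45 and 0.31 over non-mitochondrial UMIs, 0.40 and 0.26 under the stricter cell filter, 0.40 and 0.26 with doubled doublet removal, 0.40 and 0.21 with cells named one by one, 0.46 and 0.13 in cluster 2 alone, 0.41 and 0.23 as a mean over cells, 0.30 and 0.42 without the 11 members of opposite sign, and 0.40 for WT without clusters mostly of 1 library. The last, cluster 2 and the 11 members were chosen after seeing the data. For the 11 members the choice itself set the rise in het and favoured the drop in WT.

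Leaving out 1 library at a time gave 2 to 9 members and 116 to 1643 genes for cardiomyocyte-like cells at 3 dpa, 0 to 1 members and 13 to 566 genes at 7 dpa, and 0 members and 0 to 16 genes between genotypes. It gave 0 to 2 members and 0 to 676 genes in macrophage-like cells, 1 to 30 members and 260 to 1173 genes in endothelial-like cells, and 44 to 62 members and 5405 to 6278 genes in epicardial or fibroblast-like cells. A stage or genotype left with 1 library there is assumed to vary like the others.

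Some members near 0 changed sign. At 7 dpa in cardiomyocyte-like cells, the log2 difference of atp5if1a was 0.0047 with cells named one by one, 0.0049 in cluster 2 alone, and -0.13 to 0.069 with 1 library left out. That of ndufb7 was 0.11 in cluster 2 alone and -0.23 to 0.12 with 1 library left out, and that of ndufv2 -0.77 to 0.20. In epicardial or fibroblast-like cells cox6a2 was at 0.28 in cluster 8 alone, and cox5b2 at 0.43 there and 0.19 without cluster 21. The cause of these shifts was not tested. Of the other values of named members, 263 kept direction and side of the threshold under the processing settings, 11 gained a call and 17 lost one, and 171, 3 and 25 did when 1 library was left out. The labels carry no replicate numbers by which libraries could be paired.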
